A study of Mus musculus with 10 samples.

Results

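Homer1, Plk2, Plk3, Rgs2, Rasgrp1 and Ptgs2 were grouped as neuronal genes of intracellular signalling that respond to activity after the first transcription factor genes. The chromatin regions listed in these genes or within 50 kb of either end were taken from 8 peak lists of a chromatin immunoprecipitation sequencing (ChIP-seq) study. They came to 382 of 651012 regions, around 6 of 21887 protein-coding RefSeq genes. Regions were assigned by gene name and position, not by a measured value, but the genes themselves were picked with earlier results of these data known. The lists hold no RNA measurement, so the timing of induction was not checked here.

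The cells were primary neurons from the cortex of C57BL/6J mice, dissected and cultured to day 6 in vitro and kept overnight in 3% serum. One group of cultures received KCl at 50 mM over 45 min, and the other was left untreated. Both groups thus shared the strain, the age of the culture and the low serum, and no engineered allele is labelled. Chromatin was precipitated with antibodies to Gtf3c1, Rpc155, H3K4me1 and H3K27ac, which gave 1 list per antibody and condition. The 3 biological replicates that the design text states are not told apart in the lists, so the differences below were not checked between replicates and carry no p-value. A listed region in a culture of many cells also does not say whether more cells carry the protein or mark or whether each cell carries more of it.

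Gtf3c1 is the largest subunit of TFIIIC, the factor that recognises promoters of RNA polymerase III genes such as tRNA genes, and it also binds sites without RNA polymerase III. Rpc155 is the largest, catalytic subunit of RNA polymerase III. H3K4me1 marks enhancers and the flanks of active promoters, and H3K27ac marks active enhancers and promoters. KCl depolarizes neurons and opens voltage-gated calcium channels, and the calcium signal reaches factors such as CREB and SRF that switch on activity-regulated genes. The products of the genes described here act at the synapse and in the cytoplasm rather than on DNA: Homer1 is a postsynaptic scaffold, Plk2 and Plk3 are kinases, Rgs2 and Rasgrp1 regulate G proteins and Ras, and Ptgs2 makes prostaglandins.

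The promoters are shown because Gtf3c1 regions lay on the start or directly before it in at least 1 condition at each of these genes, and at Ptgs2 with KCl alone. Each line gives the 250 bases before the annotated start, from RefSeq on GRCm38.p6 and in the direction of the gene. The capitals mark TGACG on either strand, the short core of the cyclic AMP response element bound by CREB, and TGACGTCA, its full form, which holds TGACG on both strands. Homer1 is at chr13:93303507-93303756 on the plus strand, Plk2 at chr13:110394794-110395043 on the plus strand and Plk3 at chr4:117133964-117134213 on the minus strand. Rgs2 is at chr1:144004150-144004399 on the minus strand and Ptgs2 at chr1:150099781-150100030 on the plus strand.
Homer1: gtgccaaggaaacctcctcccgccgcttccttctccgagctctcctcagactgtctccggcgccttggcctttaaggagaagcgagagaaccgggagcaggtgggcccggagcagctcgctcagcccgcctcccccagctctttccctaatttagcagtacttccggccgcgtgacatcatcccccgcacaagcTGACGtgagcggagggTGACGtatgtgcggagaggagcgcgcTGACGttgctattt
Plk2: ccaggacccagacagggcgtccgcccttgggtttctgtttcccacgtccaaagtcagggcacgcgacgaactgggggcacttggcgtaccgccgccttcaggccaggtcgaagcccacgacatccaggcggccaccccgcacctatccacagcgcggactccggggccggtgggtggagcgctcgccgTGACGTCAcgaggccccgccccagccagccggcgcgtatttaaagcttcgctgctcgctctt
Plk3: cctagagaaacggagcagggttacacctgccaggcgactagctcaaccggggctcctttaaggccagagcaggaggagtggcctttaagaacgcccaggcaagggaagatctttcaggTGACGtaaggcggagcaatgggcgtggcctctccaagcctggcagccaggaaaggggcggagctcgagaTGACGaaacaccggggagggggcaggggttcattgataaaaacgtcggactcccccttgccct
Rgs2: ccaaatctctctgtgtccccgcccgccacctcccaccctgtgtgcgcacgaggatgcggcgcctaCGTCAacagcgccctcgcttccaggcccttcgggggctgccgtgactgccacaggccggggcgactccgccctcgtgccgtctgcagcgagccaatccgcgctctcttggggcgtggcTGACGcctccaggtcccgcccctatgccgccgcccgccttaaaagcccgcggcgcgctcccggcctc
Ptgs2: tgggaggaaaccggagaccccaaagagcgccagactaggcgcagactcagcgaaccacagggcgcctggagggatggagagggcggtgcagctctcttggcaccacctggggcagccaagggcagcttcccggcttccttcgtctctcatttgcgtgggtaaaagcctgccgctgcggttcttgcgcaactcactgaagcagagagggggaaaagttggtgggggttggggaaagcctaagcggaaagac

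Positions are counted from the start, with −1 as the last base of each line. TGACG occurred 3 times in the Homer1 window, with first bases at −56, −40 and −14. Plk2 held the full TGACGTCA from −62 to −55. Plk3 held TGACG on the strand shown at −132 and −63. Rgs2 held it at −67, and in the opposite direction (CGTCA) at −185. The short form was found in 17.8% and the full form in 1.55% of 32851 RefSeq promoter windows of the same length. Ptgs2 and Rasgrp1 had neither in this window.

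Other motifs were searched on both strands in the same 250 bases. GCGNGGGCG, the motif of the early growth response factors, matched once, in Rgs2, with its first base at −176 (4.70% of all windows). TGANTCA (the AP-1 motif, 6.75% of windows), TATAAA (12.4%), the CArG box of SRF (1.47%) and GTTCGANNC (the core of the B box to which TFIIIC binds in tRNA genes, 0.691%) were not found in the window of any of the 6 genes. A match is a run of letters and does not show a bound site, and a motif that was not found can lie elsewhere.

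The Gtf3c1 lists held 58090 regions with KCl and 66622 regions without, and those of Rpc155 4251 and 12531. The H3K4me1 lists held 193683 and 192225 regions, and those of H3K27ac 58124 and 65486. The lists give no read counts, so depth is not known. For each region they give the authors' fold enrichment, which is a linear ratio of the signal at the summit to the local background. The fold enrichment values are spaced by about 0.179 in both Gtf3c1 lists, by 0.182 and 0.170 in the KCl and untreated Rpc155 lists, by 0.177 and 0.178 for H3K4me1 and by 0.135 and 0.127 for H3K27ac. Between 64.3% and 86.5% of the values of a list fall on such steps, and smaller differences between them are not resolved. The values are set side by side below and were not adjusted between libraries. H3K27ac lay at the start site of 7 of 7 neuron markers with a known start with KCl and of 7 of 7 without, and at 1 and 1 of 5 astrocyte, 0 and 0 of 3 oligodendrocyte, 0 and 0 of 4 microglia, 1 and 0 of 3 endothelium (Flt1 with KCl) and 0 and 0 of 4 non-neural markers.

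The first comparison asked how many regions lay around the 6 genes in each condition. Gtf3c1 had 70 regions with KCl and 35 in untreated neurons, a ratio of 2.00, and covered 65.1 and 24.8 kb. The excess lay in Homer1, and without that gene the counts were 21 with KCl and 26 without, a ratio of 0.808. By position, 7 KCl regions and 7 untreated regions of Gtf3c1 lay within 1 kb of a start site, 44 and 7 elsewhere in a gene, and 19 and 21 outside. Rpc155 had 8 regions with KCl and 6 without, although its whole KCl list was the shorter. H3K4me1 had 102 and 90 regions, and H3K27ac 37 and 34.

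Of the 70 Gtf3c1 regions with KCl, 18 overlapped an untreated region by at least 1 bp. That is 25.7% (exact 95% interval 16.0 to 37.6, counting error only), against 51.1% of the whole KCl list. Without Homer1 the share was 61.9%. Of the 70 regions 49 lay at Homer1, and neighbouring regions of 1 gene are not independent, so the interval is too narrow. Of the 35 untreated Gtf3c1 regions, 21 overlapped a KCl region, or 60.0% (42.1 to 76.1), against 45.6% of the whole untreated list. For H3K4me1, 77.5% of KCl regions and 88.9% of untreated regions overlapped a region of the other condition, against 78.5% and 81.7% of the whole lists. For H3K27ac 64.9% and 73.5% did, against 68.1% and 62.7%. The shares of the histone marks with KCl were thus near those of their whole lists.

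Homer1 encodes a scaffold protein that links group I metabotropic glutamate receptors to Shank proteins and to calcium stores, and its activity-induced short form, Homer1a, comes from a transcript that ends inside the gene. The gene lies on chromosome 13 from 93303757 to 93405129 on the plus strand and is 101.4 kb long. Gtf3c1 was listed at 43 regions in the gene with KCl and at 5 without. They covered 43.6% of the gene with KCl and 2.92% in untreated neurons. Of the 43 KCl regions, 39 overlapped no untreated region.

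The strongest Gtf3c1 region of Homer1 lay on its start in both conditions. With KCl it ran over 7362 bp (chr13:93303316-93310677, from −0.44 to 6.92 kb of the start) with a fold enrichment of 12.9 and a −log10 q of 53.9. In untreated neurons it ran over 1645 bp (chr13:93303365-93305009) with a fold enrichment of 6.27 and a −log10 q of 15.5. Both regions held the printed 250 bases with the 3 TGACG cores in full. With KCl the region also reached past the second start that RefSeq lists, at 93308034, which no untreated Gtf3c1 region did.

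**Figure D1:**
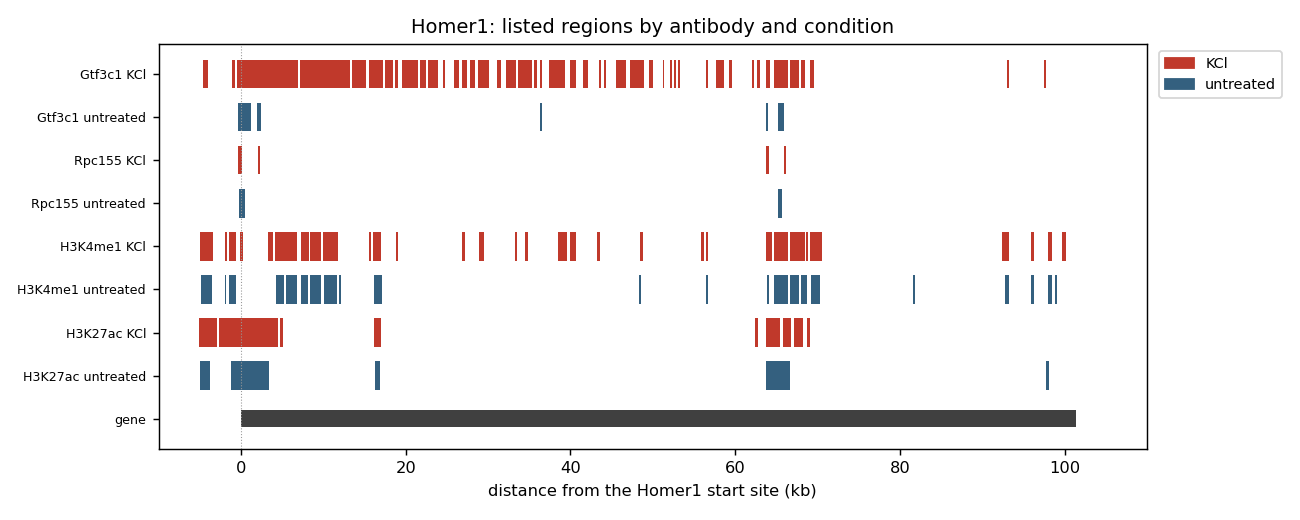
Listed regions of each antibody along Homer1, with the distance from the annotated start site in kb on the horizontal axis, KCl above untreated for each antibody and the gene as the dark bar. Of the 43 Gtf3c1 regions in the gene with KCl, 41 lie in its first 70 kb, against 5 without, while the widest H3K27ac regions in the gene lie at the start and near 64 to 69 kb in both conditions.

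Downstream of the start, Gtf3c1 regions with KCl followed each other along the gene, and the share of each 10 kb they covered tended to fall with distance. From the start it was 97.6% of the first 10 kb, 84.8% of the second, 65.0% of the third, 60.9% of the fourth and 53.1% of the fifth. It was then 25.2% and 50.7%, with nothing listed from 70 to 90 kb and 4.94% from 90 to 100 kb. In untreated neurons the first 10 kb was covered to 17.1%, the fourth to 2.56% and the seventh to 9.89%, and no region was listed in the others. A split at 70 kb, chosen after the values were seen, put 41 of the 43 KCl regions and 62.5% coverage in the first 70 kb, against 5 regions and 4.23% without KCl. The last 31.4 kb held 2 KCl regions and no untreated region, with 1.57% and 0% covered.

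The other regions in the gene had lower fold enrichments than the one on the start. Over all of them, the start included, the values ranged from 2.31 to 12.9 with KCl (median 3.95) and from 3.04 to 6.27 in untreated neurons (median 3.94). The strongest value in each 10 kb with KCl was 12.9 in the first, between 4.13 and 5.92 in the next 6, and 3.05 from 90 to 100 kb. Of the 43 KCl regions 27 had a q of 1e-05 or lower, and of the 5 untreated regions 4 did. The KCl regions were 195 to 7362 bp wide, with a median of 549 bp.

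**Figure D2:**
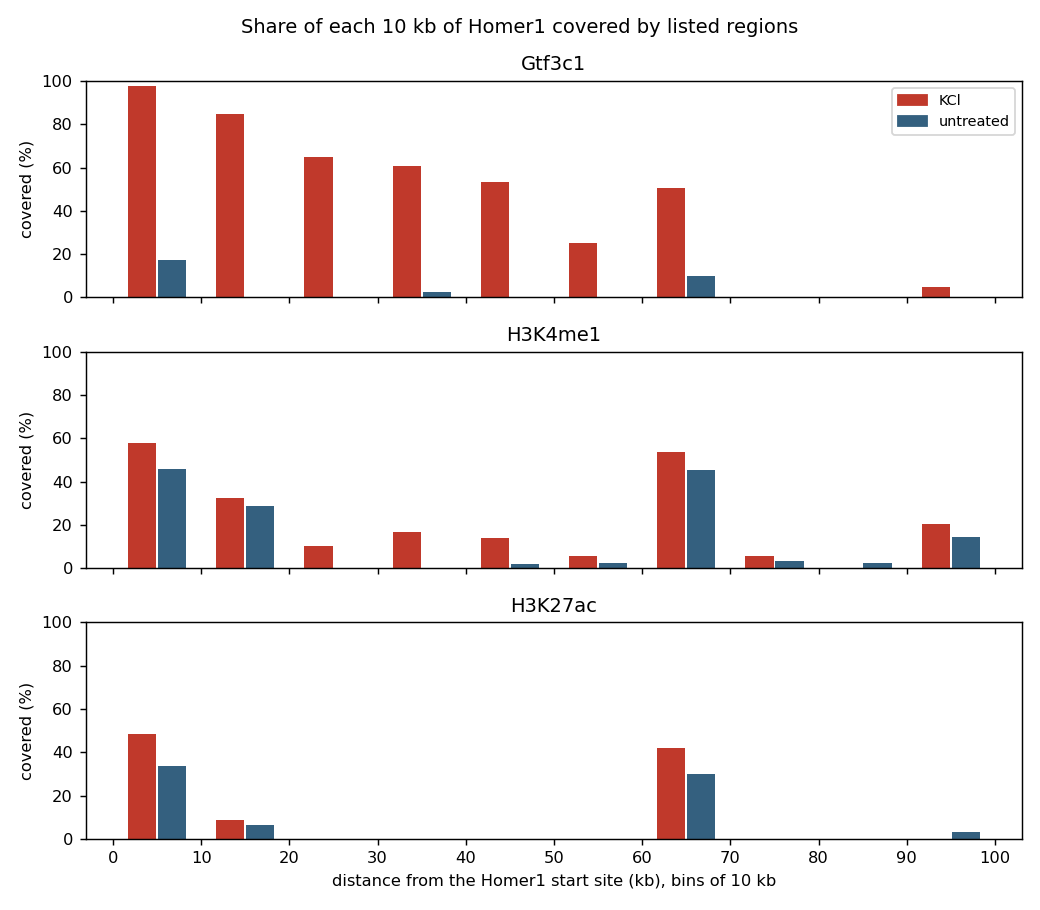
Percent of each 10 kb of Homer1 covered by listed regions of Gtf3c1, H3K4me1 and H3K27ac, by distance from the start site in kb, with KCl bars left of untreated bars. Gtf3c1 with KCl covers 97.6% of the first 10 kb and 50.7% of the seventh, against 17.1% and 9.89% without, while both histone marks peak in the same bins in both conditions.

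Set beside the whole genome, the gain of 40.7 percentage points in Gtf3c1 coverage was reached by 129 of 21887 protein-coding genes, Homer1 included. Among the 4945 genes of at least 50 kb, a length class not among the planned comparisons, no other gene reached it. The gain of 38 Gtf3c1 regions was reached by 22 genes, Homer1 included. H3K4me1 covered 21.4% of Homer1 with KCl and 14.2% without, a gain of 7.27 percentage points that 1066 of all genes and 14 of the genes of at least 50 kb reached. H3K27ac covered 9.77% and 7.20%, a gain that 4833 of all genes and 337 of the long ones reached.

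The histone marks of Homer1 had 2 main places, the first on the start. H3K27ac there was 7145 bp wide with a fold enrichment of 16.1 with KCl (chr13:93301087-93308231), and 4626 bp wide with 10.5 without (chr13:93302478-93307103). Of the 43 Gtf3c1 regions in the gene with KCl, 7 overlapped an H3K27ac region, 19 an H3K4me1 region and 3 an Rpc155 region. Over the whole KCl list of Gtf3c1 the shares were 51.6%, 70.4% and 5.88%, so that H3K27ac met a smaller share of the Homer1 regions than of the whole list. Between 20 and 50 kb H3K4me1 covered 10.2%, 16.5% and 13.7% of each 10 kb with KCl, and 0%, 0% and 2.10% in untreated neurons.

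The second place lay within the gene, from 63.69 to 69.03 kb, and held regions of all 4 antibodies in both conditions. Gtf3c1 there had 4 regions with KCl that began between 63.73 and 67.95 kb, with fold enrichments of 5.02, 4.31, 5.74 and 3.35, against 2 untreated regions with 3.04 and 5.68. H3K27ac was split over 4 regions with KCl, the strongest with 4.41, against a single untreated region from 63.72 to 66.70 kb with 6.22. H3K4me1 reached 8.45 with KCl and 11.2 without. The strongest value with KCl was thus lower for H3K27ac and H3K4me1. For Gtf3c1 the strongest values were nearly the same but lay at different sites. The KCl region of 5.74, from 66.66 to 67.75 kb, overlapped no untreated region. The KCl region that overlapped the untreated region of 5.68 had 4.31. Coverage of the seventh 10 kb was higher with KCl for all 3, at 41.9% and 29.9% for H3K27ac, 53.6% and 45.1% for H3K4me1, and 50.7% and 9.89% for Gtf3c1.

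Rpc155 was listed at Homer1 with 4 regions with KCl and 2 without. On the start the fold enrichment was 4.72 with KCl (chr13:93303377-93303837, −log10 q 7.50) and 3.40 without (chr13:93303511-93304199, 3.24). The other KCl regions lay at 2.03, 63.77 and 65.89 kb with fold enrichments of 3.16, 3.63 and 2.70, and the other untreated region at 65.22 kb with 3.57. The RNA polymerase III subunit was thus listed on the start and near 64 to 66 kb in both conditions, but its regions of the conditions overlapped only on the start. It covered 0.958% of the gene with KCl and 0.955% without. Apart from the KCl region at 2.03 kb, no Rpc155 region was listed elsewhere in the gene.

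Plk2 encodes polo-like kinase 2, which phosphorylates the spine protein SPAR and takes part in the weakening of synapses after prolonged activity. The gene is 5.801 kb long on the plus strand of chromosome 13, from 110395044 to 110400844. Gtf3c1 covered 64.8% of it with KCl and 61.8% without, the largest share among the 6 genes in each list. The region on the start, which spans the printed TGACGTCA, had a fold enrichment of 6.04 with KCl (chr13:110394304-110396629) and 6.45 without (chr13:110394253-110395605). The region in the body had 5.74 with KCl (2.64 to 4.81 kb) and 4.84 without (2.65 to 4.70 kb). H3K27ac on the start was 5619 bp wide with 15.1 with KCl, and 3732 bp wide with 11.9 without. H3K4me1 beside the start had 9.54 and 9.06.

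The Rpc155 regions on Plk2 itself lay at different places in the conditions. With KCl a region of fold enrichment 3.27 and −log10 q 2.39 lay just before the start (chr13:110394525-110394813), where the untreated list had none. In untreated neurons a region of 3.40 lay inside the gene, from 3.00 to 3.42 kb, where the KCl list had none. An upstream place was listed in both conditions, with 5.12 with KCl (chr13:110368647-110369010) and 6.11 without (chr13:110368628-110368927). It lay from −26.40 to −26.03 kb of the start of Plk2 with KCl, and the nearest protein-coding start was that of Gapt, which encodes an immune cell adaptor.

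Plk3 encodes polo-like kinase 3, a kinase of the stress response and cell cycle. The gene is 5.309 kb long on the minus strand of chromosome 4, from 117128655 to 117133963. Gtf3c1 covered 55.3% of it with KCl and 42.1% without, the second gain of at least 10 percentage points among the 6 genes (4.08% of all protein-coding genes had one). With KCl a region of 2738 bp ran from −0.04 to 2.70 kb with a fold enrichment of 4.48. A weak KCl region of 239 bp followed from 2.98 to 3.21 kb, with 2.69 and a −log10 q of 1.87. In untreated neurons regions of 318, 1439 and 559 bp lay between −0.08 and 2.98 kb, with 4.30, 2.99 and 3.22. The gain in coverage thus lay in the longer, joined region and in the weak region. The fold enrichment of the joined region differed by about 1 spacing of the lists from the strongest untreated value. H3K27ac on the start had 12.3 with KCl and 7.24 without, over 39.7% and 41.8% of the gene, and H3K4me1 inside the gene had 13.6 and 10.7. Rpc155 was listed nowhere in the gene in either condition.

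Rgs2 encodes a regulator of G protein signalling that speeds the switching off of Gq. The gene is 4.812 kb long on the minus strand of chromosome 1, from 143999338 to 144004149. Gtf3c1 had 1 region of 2470 bp on the start with KCl, with a fold enrichment of 5.92, and regions of 1534 and 542 bp without, with 4.30 and 5.01. It covered 29.1% and 24.0% of the gene. Rpc155 was listed with KCl (chr1:144004515-144004874, from −0.72 to −0.37 kb, fold enrichment 3.46) and not in untreated neurons. H3K27ac had 12.02 over 3258 bp with KCl and 6.98 over 2975 bp without. H3K4me1 just before the start had 6.32 with KCl (−1.28 to −0.55 kb) and 4.78 without (−1.62 to −0.55 kb). Just after the start it had 6.54 with KCl (1.02 to 2.05 kb) and 6.75 without (0.69 to 1.96 kb).

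Rasgrp1 encodes a Ras activator that responds to calcium and diacylglycerol. The gene is 62.9 kb long on the minus strand of chromosome 2, from 117279983 to 117342877, and was nearly free of Gtf3c1. With KCl there was 1 region in it, of 256 bp and a fold enrichment of 2.70, from 0.55 to 0.80 kb, and in untreated neurons there was none. Outside the gene the count was 5 with KCl and 6 without. In untreated neurons 4 regions lay between −45.44 and −23.53 kb of the start, with 3.04, 4.84, 5.37 and 5.37, and the KCl list had none of them. Among the 6 genes, Gtf3c1 places of fold enrichment above 5 that were listed in untreated neurons alone were found at Rasgrp1 and at no other.

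H3K27ac at Rasgrp1 was weak on the start, with 3.65 over 775 bp with KCl and 2.54 over 310 bp without. Stronger places lay upstream. One ran from −49.48 to −45.25 kb with 8.10 with KCl, and from −48.51 to −45.19 kb with 6.09 without. H3K4me1 had 17.8 and 16.5 there, and 7.24 and 6.81 on the start. Beside it, from −44.64 to −42.53 kb, H3K27ac had 3.03 with KCl, against 6.22 from −44.63 to −43.49 kb in untreated neurons, where the untreated Gtf3c1 region of 4.84 also lay. Inside the gene, from 28.81 to 32.24 kb, H3K27ac had 4.91 with KCl and 5.15 without, and H3K4me1 9.36 and 9.24. Histone regions stronger than those on the start thus lay inside Rasgrp1 and at a distance, while the strongest H3K27ac of Homer1 lay on its start. Whether the distant regions act on Rasgrp1 was not tested. Rpc155 was not listed with KCl. In untreated neurons 1 region lay at 92.87 kb, at the start of the neighbouring gene Fam98b, with 3.57.

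Ptgs2 encodes cyclooxygenase-2, the inducible enzyme of prostaglandin synthesis. The gene is 8.204 kb long on the plus strand of chromosome 1, from 150100031 to 150108234. Gtf3c1 was listed with KCl, in 1 region of 266 bp directly before the start (chr1:150099763-150100028) with a fold enrichment of 3.05 and a −log10 q of 2.80, and not in untreated neurons. H3K27ac was likewise listed with KCl, in 1 region of 352 bp (chr1:150099566-150099917) with 2.70 and a −log10 q of 3.01, and not in untreated neurons. Both lay below the medians of their KCl lists, 3.59 for Gtf3c1 and 3.24 for H3K27ac. H3K4me1 on the start had 6.89 with KCl and 5.10 without. Rpc155 was not listed near Ptgs2, and no Gtf3c1 or H3K27ac region lay inside the gene. The KCl region of Gtf3c1 covered 248 of the 250 bases printed above and that of H3K27ac 137.

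**Figure D3:**
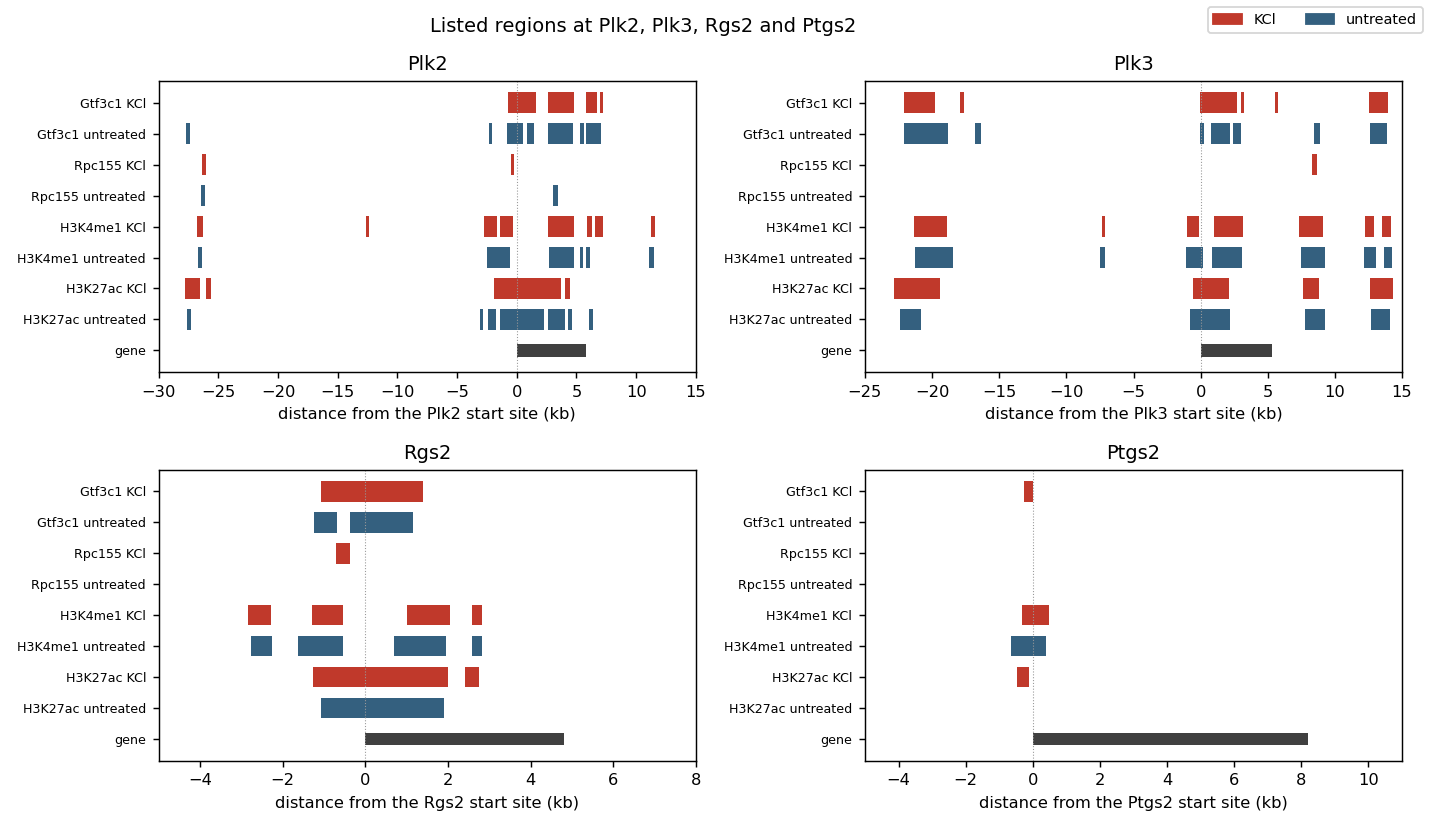
Listed regions of each antibody at Plk2, Plk3, Rgs2 and Ptgs2, by distance from each start site in kb, with KCl above untreated and the gene as the dark bar. Gtf3c1 and H3K27ac lie on the starts of Plk2, Plk3 and Rgs2 in both conditions with H3K4me1 on or beside them, while Ptgs2 has Gtf3c1 and H3K27ac with KCl and H3K4me1 in both.

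The next comparison counted the genes with a region within 1 kb of the start. Gtf3c1 was listed at 6 of the 6 with KCl and at 4 without, against 43.7% and 41.6% of all 17492 protein-coding genes with a known start. Ptgs2 and Rasgrp1 were listed with KCl alone, which held for 6.41% of all genes, and none of the 6 in untreated neurons alone (4.34%). Rpc155 was listed at 3 with KCl and at 1 without, against 7.73% and 20.3% of all genes. Plk2 and Rgs2 were listed with KCl alone (3.01% of all genes), and none of the 6 in untreated neurons alone (15.6%). The 4 Gtf3c1 and Rpc155 calls with KCl alone had fold enrichments of 2.70 to 3.46.

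H3K4me1 was listed at the start of all 6 genes in both conditions, against 62.6% of all genes with KCl and 61.9% without. None of the 6 was thus listed for it in 1 condition alone (2.36% of all genes with KCl alone and 1.66% in untreated neurons alone). H3K27ac was listed at 6 with KCl and 5 without, against 54.5% and 49.8%, and Ptgs2 was the gene listed with KCl alone (5.31% of all genes), with 0 of the 6 in untreated neurons alone (0.583%). The strongest H3K27ac value on the start was the larger with KCl in all 5 genes listed in both conditions. The share of all genes with such a rise was not counted. Over all protein-coding genes, H3K27ac of fold enrichment 6 or more was listed with KCl alone at 15.3% and in untreated neurons alone at 0.8%. For Gtf3c1 the strongest value on the start was larger with KCl in Homer1, Rgs2 and Plk3 and smaller in Plk2. The step in Plk3, 4.48 with KCl and 4.30 without, was of about 1 spacing of the list.

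**Figure D4:**
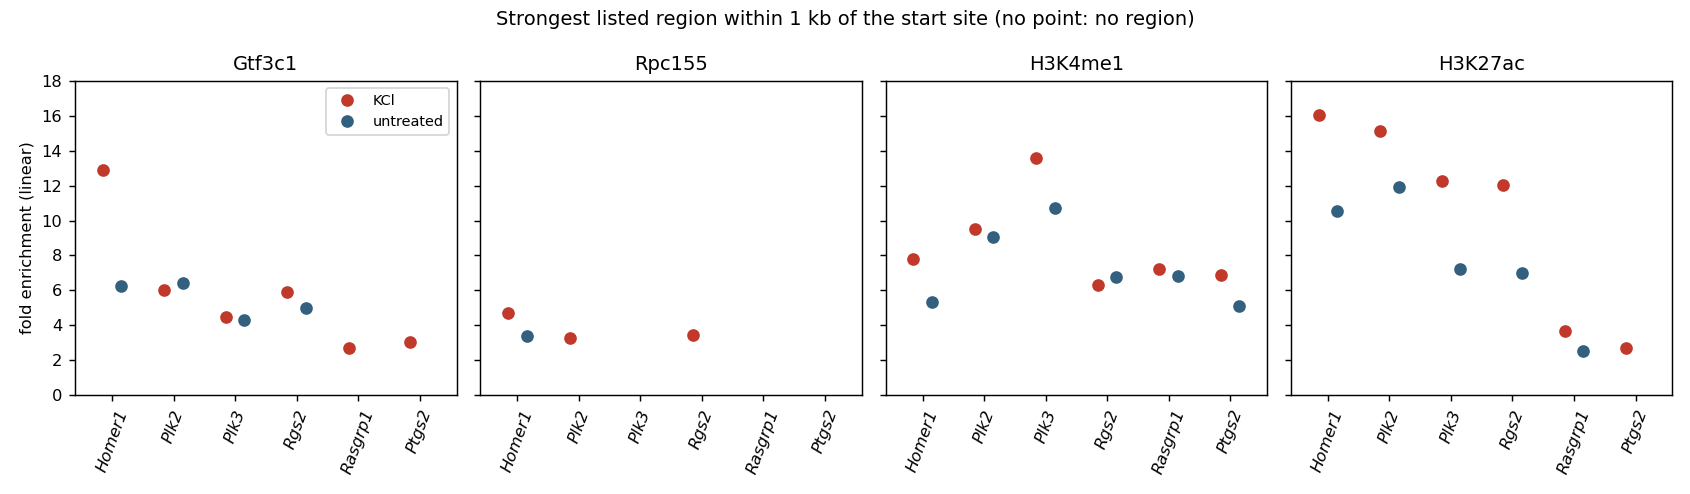
Fold enrichment (linear, the authors' value) of the strongest listed region within 1 kb of each start site, with KCl points left of untreated points and no point where no region is listed. H3K27ac is larger with KCl at Homer1 (16.1 and 10.5), Plk2, Plk3, Rgs2 and Rasgrp1. Gtf3c1 with KCl stands apart at Homer1 (12.9), while in untreated neurons Homer1 (6.27) lies near Plk2 (6.45).

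Regions with a fold enrichment of 6 or more, in a gene or within 1 kb of it, were a stricter call. For Gtf3c1, Homer1 and Plk2 passed it with KCl and again without, which are 2 of 6 genes against 14.9% and 13.7% of all genes, and none of the 6 passed it in 1 condition alone (6.24% of all genes with KCl alone and 5.08% in untreated neurons alone). No gene of the 6 passed it for Rpc155 in either condition (1.44% and 1.43% of all genes, or 0.617% with KCl alone and 0.603% in untreated neurons alone). For H3K4me1, 6 passed with KCl and 5 without, against 58.4% and 54.7%, and Ptgs2 passed with KCl alone (6.78%) and none in untreated neurons alone (3.09%). For H3K27ac, Homer1, Plk2, Plk3 and Rgs2 passed in both conditions, which are 4 of 6 against 46.2% with KCl and 31.7% without. None of the 6 passed for H3K27ac in 1 condition alone, where 15.3% of all genes did with KCl alone and 0.8% in untreated neurons alone.

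Coverage of the whole gene was compared next. Gtf3c1 covered a mean of 32.2% of the 6 genes with KCl and 21.8% without, and a median of 36.4% and 13.4%. Without Homer1 the mean was 29.9% and 25.6%. Over all protein-coding genes the mean was 4.88% and 4.21%, and the median 0.337% and 0.453%. These genes were not matched for length. Plk2, Plk3 and Rgs2 are 4.812 to 5.801 kb long, so a region of a given width covers a larger share of them than of a long gene. Homer1 and Plk3 gained at least 10 percentage points with KCl, as did 4.08% of all genes, and no gene of the 6 lost as much (1.98% of all genes). H3K27ac covered 29.1% and 27.04% of the 6 genes, against 8.92% and 6.61% of all genes, and H3K4me1 24.1% and 25.4%, against 14.0% and 13.4%. Rpc155 covered 0.160% and 1.36%, against 0.257% and 0.746%. No gene of the 6 moved by 10 percentage points for these 3 antibodies. Of all genes, 7.26% gained and 0.525% lost as much for H3K27ac, 2.94% and 1.21% for H3K4me1, and 0.21% and 1.23% for Rpc155.

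A region anywhere in the gene was listed in 1 condition alone at few of the 6 genes. For Gtf3c1 it was Rasgrp1 with KCl alone (5.36% of all genes) and none in untreated neurons alone (5.93%). For Rpc155 it was none with KCl alone (2.96%) and Plk2 in untreated neurons alone (18.5%). For H3K4me1 there was none with KCl alone (1.46%) and none without (1.23%), and likewise for H3K27ac (5.19% and 1.26%).

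**Figure D5:**
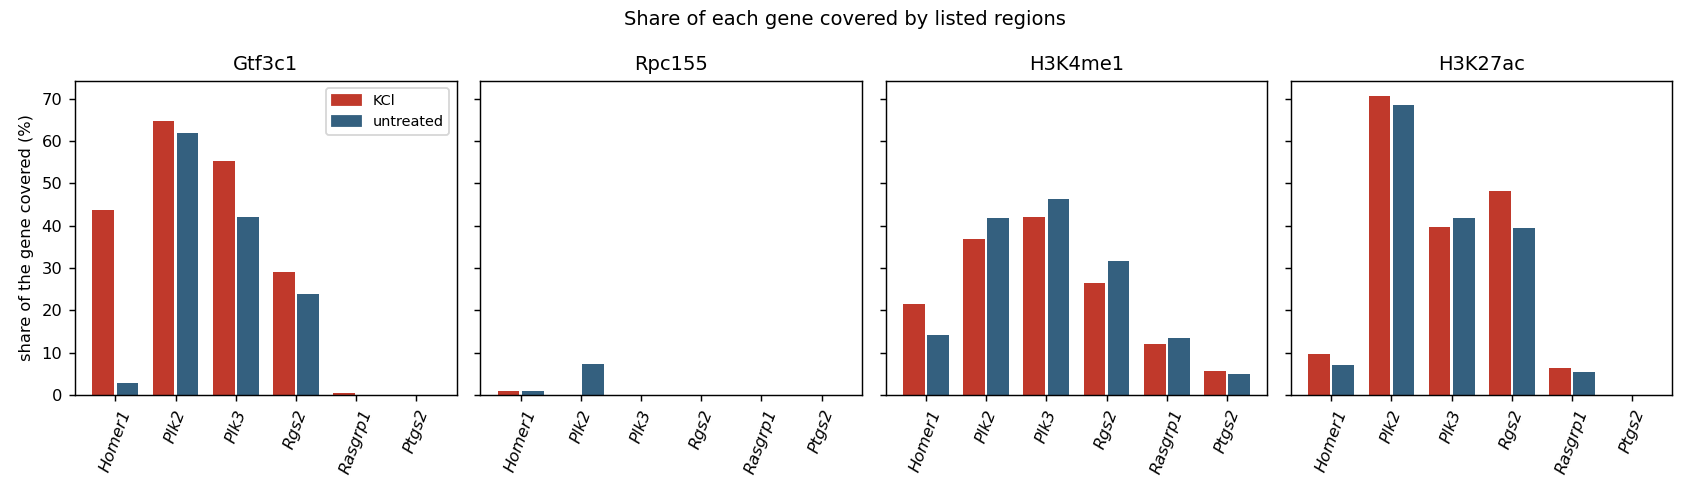
Percent of each of the 6 genes covered by listed regions of each antibody, with KCl bars left of untreated bars. Gtf3c1 covers 43.6% of Homer1 with KCl and 2.92% without, while Plk2 is covered to 64.8% and 61.8%.

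Overlap between antibodies within a condition was then counted. Of the Gtf3c1 regions near the 6 genes, 22 of 70 overlapped H3K27ac with KCl, or 31.4% (exact 95% interval 20.9 to 43.6), against 51.6% of the whole list. In untreated neurons 26 of 35 did, or 74.3% (56.7 to 87.5), against 48.9% of the whole list. At Homer1 alone 9 of 49 did with KCl and 5 of 9 without. At the other 5 genes 13 of 21 did with KCl (61.9%) and 21 of 26 without (80.8%). Of the Rpc155 regions, 6 of 8 with KCl and 5 of 6 without overlapped a Gtf3c1 region, near the 81.8% and 76.3% of the whole lists.

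Joining overlapping regions of all lists gave 121 places around the 6 genes. A place can join regions that do not overlap each other directly. Regions of all 8 lists were joined at 3 places (2.48%, against 0.924% of 231785 places over the whole genome). These were the start of Homer1 (−2.67 to 6.92 kb), the second place of Homer1 and a stretch at Plk2. The stretch ran from −2.78 to 4.81 kb and took in the start and most of the gene. Only at the start of Homer1 did the Rpc155 regions of the conditions overlap each other. Gtf3c1 was listed with KCl alone at 47 places, of which 41 lay at Homer1, in untreated neurons alone at 11 and in both conditions at 14. As shares of its 72 places these were 65.3%, 15.3% and 19.4%, against 26.4%, 37.6% and 35.97% over the whole genome. Without Homer1 they were 25.0%, 33.3% and 41.7% of 24 places, closer to the genome. For H3K27ac 23.7% of 38 places were listed with KCl alone and 23.7% in untreated neurons alone, against 20.3% and 27.5%, and for H3K4me1 20.9% and 9.30% of 86 places, against 19.2% and 16.5%.

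Related genes were read the same way, at the start sites that were known, from lists of relatives and pathway partners. The fold enrichments given for them are of the strongest region in the gene or within 1 kb of it. Over all genes with a known start, Gtf3c1 was listed there with KCl alone at 6.41% and in untreated neurons alone at 4.34%. For Rpc155, whose untreated list was the longer, it was 3.01% and 15.6%, and for H3K27ac 5.31% and 0.583%. Of all genes, 4.08% gained and 1.98% lost at least 10 percentage points of Gtf3c1 coverage with KCl. Of the 14 paralogs of the 6 genes, 12 had a known start, and Gtf3c1 was listed at 9 with KCl and at 8 without. Plk5 was listed for Gtf3c1 with KCl alone (2.69). For Rpc155, Plk4, a kinase gene of centriole duplication, was listed with KCl alone (3.27), and the mitotic kinase gene Plk1 (4.41) and Rgs7 (4.07) in untreated neurons alone. For H3K27ac, Plk1 (6.62), Plk5 (3.11) and Rgs16 (3.38) were listed with KCl alone. Rgs8 had H3K27ac at its start in untreated neurons alone, although the gene had values of 2.97 with KCl and 2.67 without. Gtf3c1 covered 16.1% of Homer3 with KCl and 1.40% without, and 15.8% and 39.9% of Rgs4. The median paralog was covered to 1.26% and 1.52% by Gtf3c1, against 0.337% and 0.453% for all genes.

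Of 11 synaptic partners of Homer1 and Plk2, such as glutamate receptors and Shank proteins, 5 had a known start, and Gtf3c1 was listed at 4 in each condition. Their median Gtf3c1 coverage was 3.59% with KCl and 2.84% without. Rpc155 was listed at the start of the scaffold gene Dlgap1 in untreated neurons alone, with values in the gene of 4.00 with KCl and 4.75 without. In the Ras and MAP kinase cascade downstream of Rasgrp1, 5 of 10 genes had a known start. Gtf3c1 and H3K27ac were listed at 5 in each condition, with a median Gtf3c1 coverage of 4.85% and 5.76%. Rpc155 lay at the kinase genes Map2k1 (3.23) and Map2k2 (3.74) in untreated neurons alone, as it did at 15.6% of all genes. Gtf3c1 covered 16.04% of Mapk3, which encodes ERK1, with KCl and 32.8% without.

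The next list held genes of Gq, on which Rgs2 acts, genes of calcium signalling, and the Gi genes Gnai1 and Gnai2. Of its 8 genes, 7 had a known start. Gtf3c1 was listed at 5 with KCl and at 6 without, and the median coverage was 2.28% and 2.49%. Prkcb, a protein kinase C gene, had a start region with KCl alone, with values in the gene of 3.95 with KCl and 8.60 without. Plcb1 and Plcb4, phospholipase C genes, had one in untreated neurons alone, with 4.48 and 9.31 in Plcb1 and 13.8 and 22.4 in Plcb4. Rpc155 was listed at the starts of Gnaq, Gnai1 and Prkca in untreated neurons alone (15.6% of all genes) and at none with KCl (7.73% of all genes). Gtf3c1 covered 16.8% of Gnai2 with KCl and 4.21% without.

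Among 8 genes of prostaglandin synthesis and its receptors, 7 had a known start. Gtf3c1 was listed at 3 with KCl and at 4 without, with a median coverage of 0.682% and 1.57%. Ptges, a prostaglandin E synthase gene, was listed in untreated neurons alone (3.58). Rpc155 was listed at Ptges2 in untreated neurons alone (3.57), and H3K27ac at the receptor gene Ptger4 with KCl alone (3.38).

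The genes most like each of the 6 were found by the Euclidean distance over the shares of the gene covered in the 8 lists, in percentage points. Nearest to Homer1 were Amigo3 (9.11), Iqcn (10.5) and Ifrd1 (12.9), and Amigo3 is 2.543 kb long. Nearest to Plk2 were Tob1 (21.9), Rps26 (22.3) and Cd24a (27.6), the nearest of them farther off than for any of the other 5 genes. Plk3 was nearest to Dda1 (14.4), Maf1 (17.6) and Arrdc3 (19.0), and Rgs2 to Fastk (10.7), Msl1 (12.2) and Rhbdd3 (13.8). Rasgrp1 was nearest to Mettl14 (1.45), Dgkg (1.75) and Ankrd34b (1.78), and Ptgs2, which is hardly covered, to Timp4 (0.0540), Ccdc63 (0.0615) and Nts (0.318).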

How the data were processed

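The tools were Bowtie2 and MACS2 and the build GRCm38/mm10, per the submitters' processing notes, which the sources used here give without tool versions. Per the labels' design text, total input chromatin was the control and there were 3 biological replicates. Input was not analysed here, and pooling of replicates is not stated. Each deposited list gives a position, a summit, a score, a fold enrichment (a ratio), a −log10 p and a −log10 q as the authors' peak caller wrote them. The lowest −log10 q per list was 1.30 to 1.46, and 0.05 was taken as the authors' q threshold. Per-sample columns left unused numbered 0.

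Gene ends came from a RefSeq table on GRCm38, and strands and starts from RefSeq promoters on GRCm38.p6, which matched all 6 genes and 17492 of 21887 protein-coding genes. Shares carry exact (Clopper-Pearson) 95% intervals. These, and the intervals of the ratios, treat regions as independent, which neighbouring regions of 1 gene are not. The counting code was tested on simulated data. Python 3.11.15, pandas 2.3.3, numpy 2.4.6, scipy 1.17.1 and matplotlib 3.10.9 were used.

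The 6 genes, the related lists and the markers were chosen with earlier results of these data known. Named genes were the 6, list members with a start region of Gtf3c1, Rpc155 or H3K27ac in 1 condition alone, neighbours starting within 50 kb (some are not reported here), and the 3 genes nearest by covered shares (predicted models left out). List members whose Gtf3c1 coverage moved by 10 percentage points or more were named after their values were seen. Alternatives were a stricter q, equal list lengths, other windows, overlaps and cutoffs, and leaving out Homer1.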

Additional observations from a re-analysis of the deposited data

How the results depend on the processing

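Of 108 alternative values for 32 results, 90 stayed within the exact interval of the value reported (ratios and shares) or within 1.5 times of it (counts and coverage), 17 moved further and 1 reversed. Within those intervals the H3K4me1 ratio was 0.986 with a q of 1e-05 or lower, against 1.13 as reported, and the Rpc155 ratio ranged up to 2.33 (a window of 20 kb) and down to 1.00 (without Homer1), against 1.33. Leaving out Homer1, an alternative chosen after seeing the data, turned the Gtf3c1 ratio of KCl to untreated regions to 0.808 (21 against 26). It also moved the share of KCl regions that overlapped an untreated region to 61.9% for Gtf3c1 and 86.2% for H3K4me1, and the mean Rpc155 coverage with KCl to 0%. The mean Gtf3c1 coverage without it was 29.9% with KCl and 25.6% in untreated neurons, against 32.2% and 21.8% with it. With equal list lengths the Rpc155 ratio was 8.00 (8 against 1), and untreated Rpc155 lay at 0 starts with a mean coverage of 0%. With a q of 1e-05 or lower, Rpc155 lay at 1 start with KCl and at 0 without, with mean coverages of 0.0133% and 0%, and untreated Gtf3c1 coverage was 13.7%. Taken as a median over the 6 genes, coverage was 13.4% for untreated Gtf3c1, and 0% with KCl and 0% without for Rpc155. With a fold enrichment of 4, 4 genes passed for Gtf3c1 with KCl and 4 without, and 1 for Rpc155 with KCl. The cause was not tested, except that the last setting counts more regions and the median sets aside single genes by construction. No paired analysis was possible because each antibody and condition has 1 list. Depth is not known, so a region missing from a list was not detectable there rather than shown to be absent.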

Other observations

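Some regions within 50 kb of Plk3 lay on starts or bodies of neighbouring genes and were listed in both conditions. Near Tctex1d4, H3K27ac had a fold enrichment of 9.86 with KCl and 7.49 without, and Gtf3c1 8.79 and 7.70. At the start of Kif2c, which encodes a mitotic kinesin, H3K27ac had 7.62 with KCl and 4.19 without, while Gtf3c1 had 5.92 and 7.16. Beside Rasgrp1, the start of Fam98b had 11.5 and 6.98 for H3K27ac and 3.75 and 2.87 for Gtf3c1. H3K27ac was the larger with KCl at these 3 neighbours, as it was on the starts of Homer1, Plk2, Plk3, Rgs2 and Rasgrp1. How many of all genes had such a rise was not counted, so it cannot be called particular to these sites. Over all protein-coding genes a fold enrichment of 6 or more for H3K27ac was listed at 46.2% with KCl and at 31.7% without. Rpc155 near Plk3 was listed at the start of Btbd19 with KCl alone (chr4:117125319-117125637, 3.78) and at the start of Kif2c in untreated neurons alone (3.23).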
